A study of Mus musculus with 24 samples.

Results

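The members are the proteasome genes of the mouse as named by symbol: Psm followed by a letter from a to g, a number and at most 1 further letter. Such a symbol was carried by 49 of 52323 genes and spike-ins in each table, and all 49 were matched by symbol to GENCODE M21 on mm10. They comprise the 8 alpha subunits of the 20S core, Psma1 to Psma8, its 7 constitutive beta subunits, 4 beta subunits of immune cells and thymus, 6 ATPases and 3 non-ATPase subunits of the 19S base, 8 subunits counted here as the 19S lid, 3 chaperones of 19S assembly, 4 chaperones of 20S assembly, and 6 activators or inhibitors. The pair at the centre is Psma8 (chr18:14706151-14762301, plus strand) and Psma7 (chr2:180036374-180042433, minus strand), alternative subunits for the same position of the alpha ring.

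Germ cells were sorted by ploidy from the testes of wild-type NMRI mice whose spermatogenesis had been synchronised with WIN18,446, a blocker of retinoic acid synthesis, and then retinoic acid. At 24 days after birth every animal received 2 mg of the uridine analogue EU for 3 hours, so that RNA made in that time could be captured as nascent RNA. The groups were spermatogonia, preleptotene, leptotene and pachytene spermatocytes, with 3, 1, 4 and 4 libraries from 2, 1, 3 and 2 animals in each assay. All groups share the strain, the synchronisation and the EU label, and no untreated animals were in the comparison. Total RNA was depleted of ribosomal RNA and EU-labelled RNA was not. Values are FPKM, read fragments scaled to transcript length and library size, so that levels of different genes can be set side by side per length. In these bulk samples, fewer cells that express a gene and less of its RNA per cell cannot be told apart.

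The 26S proteasome degrades proteins tagged with ubiquitin. Its 20S core is a barrel of alpha and beta rings, the beta rings hold the proteolytic sites, and the 19S particle at its end recognises, unfolds and feeds in the substrate. Germ cells of the testis replace the alpha subunit encoded by Psma7 with the product of Psma8, and together with the activator encoded by Psme4 the resulting particle is known as the spermatoproteasome, which is needed for male meiosis. Interferon-induced beta subunits make the immunoproteasome in other cells.

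Leptotene library 2 stood apart in both assays and is given separately throughout. Its pachytene markers, 8 genes such as Piwil1 and Ccna1, summed to 1877 FPKM in total RNA, against 74.0 to 110 in the other leptotene libraries and 2138 to 2536 in pachytene. In nascent RNA the sum was 409 FPKM, against 19.8 to 45.5 in the other leptotene and 256 to 917 in pachytene libraries. Over 19202 genes, its Spearman correlation in total RNA was 0.874 to 0.904 with pachytene libraries and 0.528 to 0.569 with the other leptotene libraries. It comes from the same animal as leptotene library 1, with which it is averaged in the tests. Leptotene library 3, the only leptotene library of its animal, lay close to spermatogonia. Its Spearman correlation was 0.739 to 0.853 with spermatogonia and 0.841 to 0.846 with leptotene libraries 1 and 4 in total RNA. In nascent RNA the corresponding values were 0.766 to 0.862 and 0.773 to 0.779. Markers of Sertoli cells summed to 91.2 to 136 FPKM in total RNA of spermatogonia and to 1.64 to 3.69 FPKM in pachytene. Blood and macrophage markers summed to 36.0 to 39.3 FPKM in spermatogonia and 2.55 to 4.05 FPKM in pachytene. Spike-ins took up 2.49 to 8.19% of the summed FPKM in total and 5.01 to 76.5% in nascent libraries, and the FPKM were used as deposited.

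Psma8 was the most abundant proteasome RNA of pachytene spermatocytes. In total RNA it was at 7.07, 6.06 and 10.9 FPKM in the 3 spermatogonial libraries, 5.00 in preleptotene, 3.72, 141, 9.28 and 5.83 in leptotene libraries 1 to 4, and 152, 199.7, 146 and 208 in pachytene. All 4 pachytene libraries lay above every library of the earlier stages, and leptotene library 2 lay just under them. Psma7 was at 2.74, 4.63 and 3.03 FPKM in spermatogonia, 1.14 in preleptotene, 1.31, 0.473, 2.90 and 1.29 in leptotene, and 0.452, 0.713, 0.573 and 0.529 in pachytene. Its order was the opposite one, with spermatogonia high, pachytene low and leptotene library 2 among the pachytene values. Means over animals were 8.74 ± 3.07 (SD, n = 2), 29.2 ± 37.6 (n = 3) and 176 ± 38.8 FPKM (n = 2) for Psma8 in spermatogonia, leptotene and pachytene. The corresponding means of Psma7 were 3.36 ± 0.460, 1.70 ± 1.07 and 0.567 ± 0.0768 FPKM.

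In nascent RNA the spermatogonial and pachytene libraries of both genes again did not overlap. Psma8 was at 1.98, 2.73 and 2.64 FPKM in spermatogonia, 0.667 in preleptotene, 0.926, 19.7, 2.74 and 1.07 in leptotene, and 25.7, 42.7, 15.4 and 50.4 in pachytene. Psma7 was at 2.21, 2.49 and 2.84 FPKM in spermatogonia, 0.883 in preleptotene, 0.439, 0, 1.52 and 0.358 in leptotene, and 0.0411, 0.247, 0.0328 and 0.119 in pachytene. In nascent RNA the pair was nearly equal in spermatogonia, where Psma8 over Psma7 was 0.895 to 1.10, and far apart in pachytene, where it was 173 to 626. The size of the pachytene ratio rests on very low Psma7 values, 0.0328 to 0.247 FPKM, and is imprecise. The same ratio in total RNA was 1.31 to 3.60 in spermatogonia and 255 to 393 in pachytene. How the authors' counting treated reads that match several copies of a gene is not given in the sources used here, so the low level of Psma7 is uncertain to that extent.

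**Figure D1:**
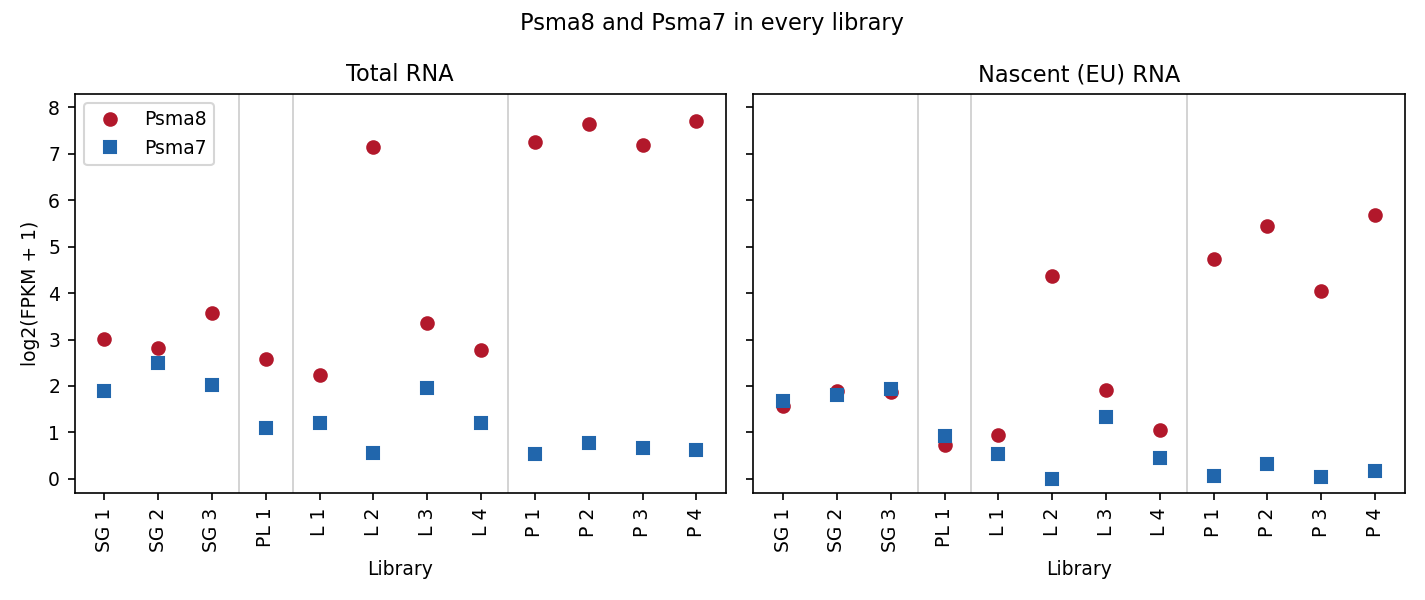
Psma8 and Psma7 in every library, as log2(FPKM + 1) on the vertical axis, in total RNA and nascent RNA; each point is 1 library of spermatogonia (SG), preleptotene (PL), leptotene (L) or pachytene (P). Psma8, at 146 to 208 FPKM in total RNA of pachytene, stands far above the earlier libraries other than leptotene library 2 at 141 FPKM, while Psma7, at 0.452 to 0.713 FPKM, lies below the spermatogonial values of 2.74 to 4.63.

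Psma8 rose between leptotene and pachytene, and its difference between spermatogonia and leptotene was not called in either assay. Differences are given as log2(FPKM + 1) of animal means with the standard error after the sign, and a call is a limma test whose p, after Benjamini-Hochberg adjustment across every gene tested, was under 0.05. Psma8 rose from leptotene to pachytene by 3.84 ± 0.55 in total RNA (adjusted p = 0.00315, limma) and by 3.11 ± 0.53 in nascent RNA (adjusted p = 0.00194, limma). From spermatogonia to pachytene it rose by 4.21 ± 0.60 (adjusted p = 0.00115) and 3.18 ± 0.59 (adjusted p = 0.00156, limma) in these assays. Without leptotene library 2, the rise from leptotene was 4.66 ± 0.38 in total RNA, and the difference of leptotene from spermatogonia, which was not called, turned from above 0 to -0.45. Without leptotene library 1, where its animal rests on library 2, the rise from leptotene was 3.02 in total RNA (adjusted p = 0.19) and 2.54 in nascent RNA (adjusted p = 0.0814, limma) and was not called. With the spike-ins as the scale the nascent difference was 1.87 ± 2.04 and not called either. Psma7 fell from spermatogonia to pachytene by 1.46 on the log2 scale in total RNA (SE 0.38, adjusted p = 0.0111, limma) and by 1.70 in nascent RNA (SE 0.38, adjusted p = 0.00435, limma), and the former call was lost without leptotene library 1 (adjusted p = 0.0512, limma). Its difference of pachytene from leptotene in total RNA, -0.70 ± 0.35, was not called (adjusted p = 0.135, limma), but it was without leptotene library 2 (-0.81, adjusted p = 0.0442, limma).

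The exchange within the pair was followed per animal as log2((Psma8 + 1)/(Psma7 + 1)). In total RNA the 2 spermatogonial animals were at 0.72 and 1.56, the 3 leptotene animals at 1.40, 1.58 and 3.81, and the 2 pachytene animals at 6.63 and 6.98. The highest leptotene value belongs to the animal of leptotene library 2, and no leptotene animal reached the pachytene values. The mean of pachytene was 4.55 above that of leptotene (two-sided exact permutation p = 0.2, the smallest that 2 against 3 animals allow) and 5.67 above that of spermatogonia (exact permutation p = 0.333, the smallest for 2 against 2). Leptotene was 1.12 above spermatogonia, with overlapping animals (exact permutation p = 0.4). The animal of leptotene library 3 also gave pachytene libraries 2 and 4 of total RNA. Psma8 was at 9.28 FPKM in the former and 199.7 and 208 in the latter. That leptotene library correlated with spermatogonia at up to 0.853, against 0.841 to 0.846 with leptotene libraries 1 and 4. The pair may therefore not stand for leptotene against pachytene alone. In nascent RNA the ratio was -0.08 and -0.01 in spermatogonia, 0.57, 0.61 and 2.40 in leptotene, and 4.34 and 5.33 in pachytene. There too the pachytene animals did not overlap the others, with differences of 3.64 from leptotene (exact permutation p = 0.2) and 4.87 from spermatogonia (exact permutation p = 0.333). Leptotene was 1.23 above spermatogonia in nascent RNA, again without overlap (exact permutation p = 0.2). None of these 6 tests could pass 0.05 at such numbers of animals, and the Benjamini-Hochberg adjusted exact p was 0.4 for each.

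Within the alpha ring Psma8 went from a minor to the main RNA. It made up 14.8, 10.5 and 19.3% of the summed alpha-subunit FPKM in total RNA of spermatogonia, 11.9% in preleptotene, 11.3, 83.5, 16.6 and 14.2% in leptotene, and 78.1, 80.5, 82.2 and 80.5% in pachytene. Nascent RNA gave 6.82 to 8.68% in spermatogonia, 4.96 to 11.1% in leptotene other than library 2, 65.4% in library 2 and 70.0 to 78.0% in pachytene. The sum of the other 7 alpha subunits in total RNA was 40.7 to 51.4 FPKM in spermatogonia, 28.0 to 46.8 in leptotene and 31.7 to 50.6 in pachytene, with overlapping ranges. In nascent RNA that sum was lower in every pachytene library, at 6.62 to 14.2 FPKM, than in every spermatogonial library, at 20.8 to 36.1. This separation depends on the scale, since the sums of these groups overlapped in the deposited 5S-corrected values described below.

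Among all 49 members Psma8 ranked 14th to 23rd by total RNA in spermatogonia and first in each of the 4 pachytene libraries and in leptotene library 2. In pachytene it was 2.34 to 4.24 times the next member, which was Psmd2 in 3 libraries and Psmb5 in the other. Of the remaining alpha subunits Psma6 had the highest mean, at 6.20, 13.9 and 13.5 FPKM in spermatogonia, 5.91, 7.98, 15.4 and 10.9 in leptotene and 15.8, 13.3, 6.41 and 15.8 in pachytene. Those ranges overlapped, and no alpha subunit other than Psma8 and Psma7 was called in total RNA. Psma4 had the highest mean of the others in nascent RNA, at 6.24, 10.2 and 13.4 FPKM in spermatogonia and 4.83, 6.36, 2.97 and 5.67 in pachytene, and was not called.

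**Figure D2:**
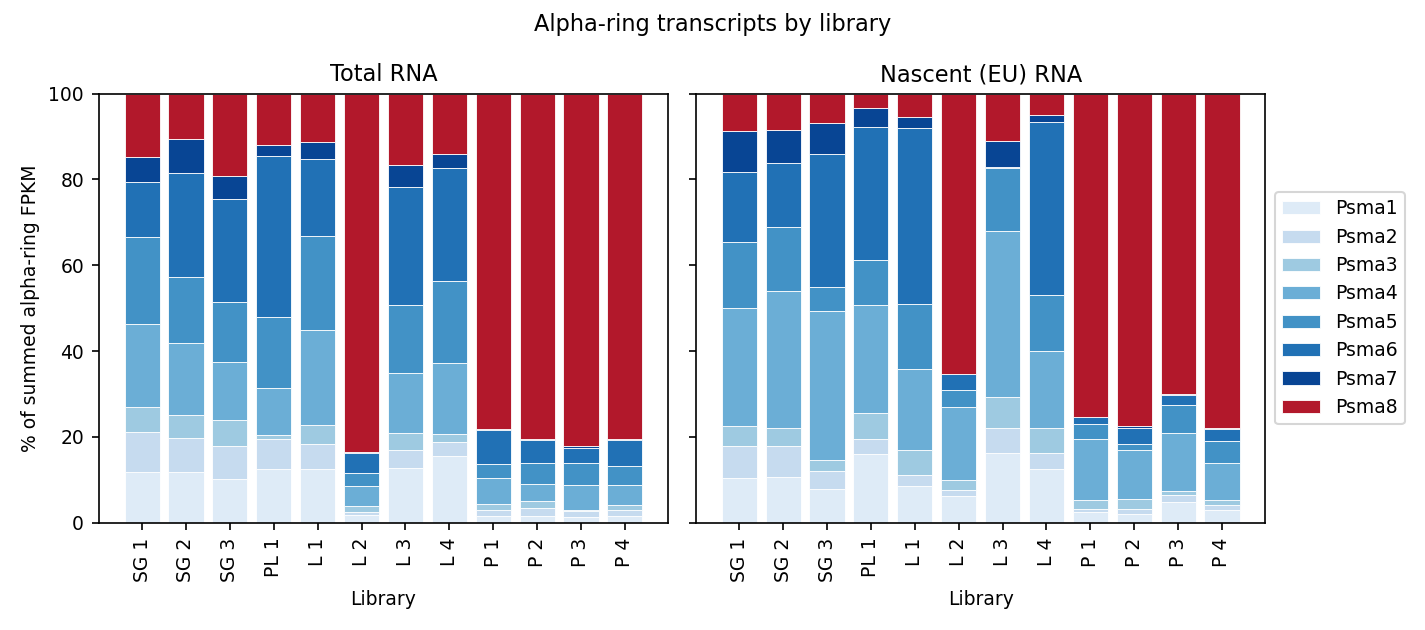
Share of each of the 8 alpha subunits in the summed alpha-subunit FPKM (percent, bars from 0 to 100) for every library of total and nascent RNA, with libraries of spermatogonia (SG), preleptotene (PL), leptotene (L) and pachytene (P) numbered as deposited. Psma8 takes 78.1 to 82.2% in total RNA of pachytene and 83.5% in leptotene library 2, against 10.5 to 19.3% in the other libraries.

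Across the whole complex, 7 of the 46 members tested in total RNA rose from leptotene to pachytene and 1 fell. Of all 19097 genes 22.5% rose and 18.0% fell in that comparison, so the 7 members are a smaller share than the background of rises. The median difference of the members was 0.36, against -0.06 over all genes, and 32 of the 46 were above 0. The risers were Psma8, the lid subunits Psmd8 and Psmd7, the ATPases Psmc2 and Psmc3, the 20S assembly chaperone Psmg2 and the activator Psme4, and the gene that fell was the 19S chaperone Psmd10. From spermatogonia to pachytene 6 members rose and 7 fell, where 23.2% of all genes rose and 29.9% fell. Of the 7, Psmb9 and Psme2 reached 1 FPKM only in spermatogonia and so were tested only through the group where they were high. The member median was 0.15 and that of all genes -0.14. From spermatogonia to leptotene no member was called by limma in total RNA, where 0.293% of all genes rose and 9.65% fell. At an unadjusted p under 0.05 there were 3 members and 4186 genes in that comparison. The members not tested were Psmb8, Psmb11 and Psme2b, which did not reach 1 FPKM in 2 libraries. All 3 comparisons share groups, so their calls are not independent of each other.

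Animal and library choices bore on these counts. In each assay only 1 animal gave both leptotene and pachytene. With the animal as a block, the difference of pachytene from leptotene therefore rests on that animal, whose only leptotene library is library 3. Pachytene minus spermatogonia is linked through leptotene and rests on it too. Calls kept or lost with the block thus say little about the spread between animals. With the animal as a block, since some animals gave several stages, 4 members rose and 1 fell from leptotene to pachytene (13.7% and 9.73% of all genes), and 4 rose and 2 fell from spermatogonia (14.5% and 17.7%). Without leptotene library 1, whose animal is then represented by library 2 alone, limma called no member between leptotene and pachytene and only 8 of all genes as higher and 1 as lower (0.0427% and 0.00533%). Without leptotene library 2 the counts were 13 higher and 5 lower (29.0% and 24.8%). With the spike-ins as the scale 22 members were higher and 1 lower against leptotene (39.5% and 10.6%), and 12 higher and 4 lower against spermatogonia (32.7% and 23.1%), while the median of all genes moved to 0.62 and 0.37.

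Single libraries also decided some calls. Against leptotene, Psmg2 was not called without leptotene library 3 or 4 or spermatogonia library 3, Psmc3 without leptotene library 3 or 4 and Psmc2 without leptotene library 4, with adjusted p from 0.0524 to 0.0812 (limma). Against spermatogonia, the omission of leptotene library 1, which enters only through the spread between animals, left 1 member higher, Psma8, and 4 lower. Without spermatogonia library 3 Psmg2 (adjusted p = 0.178), Psmc2 (0.0647) and Psmd5 (0.182, limma) were not called in that comparison. Psme1 was not called without leptotene library 4 (adjusted p = 0.052) or pachytene library 1 (0.064, limma), and Psmd5 not without leptotene library 2 (0.0504). Psmb9 and Psme2 were not tested without spermatogonia library 1 or without spermatogonia library 2.

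Proteasome RNA as a whole took a larger part of total RNA in pachytene. All members summed to 0.115 to 0.132% of the FPKM in spermatogonia, 0.0788 to 0.106% in leptotene other than library 2, 0.222% in that library and 0.234 to 0.291% in pachytene. Leaving out Psma8, the share was 0.114 to 0.129% in spermatogonia and 0.184 to 0.216% in pachytene, without overlap. In nascent RNA the shares overlapped, at 0.0718 to 0.0855% in spermatogonia and 0.0577 to 0.0858% in pachytene. These shares were not tested, and spike-ins are left out of the sums.

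**Figure D3:**
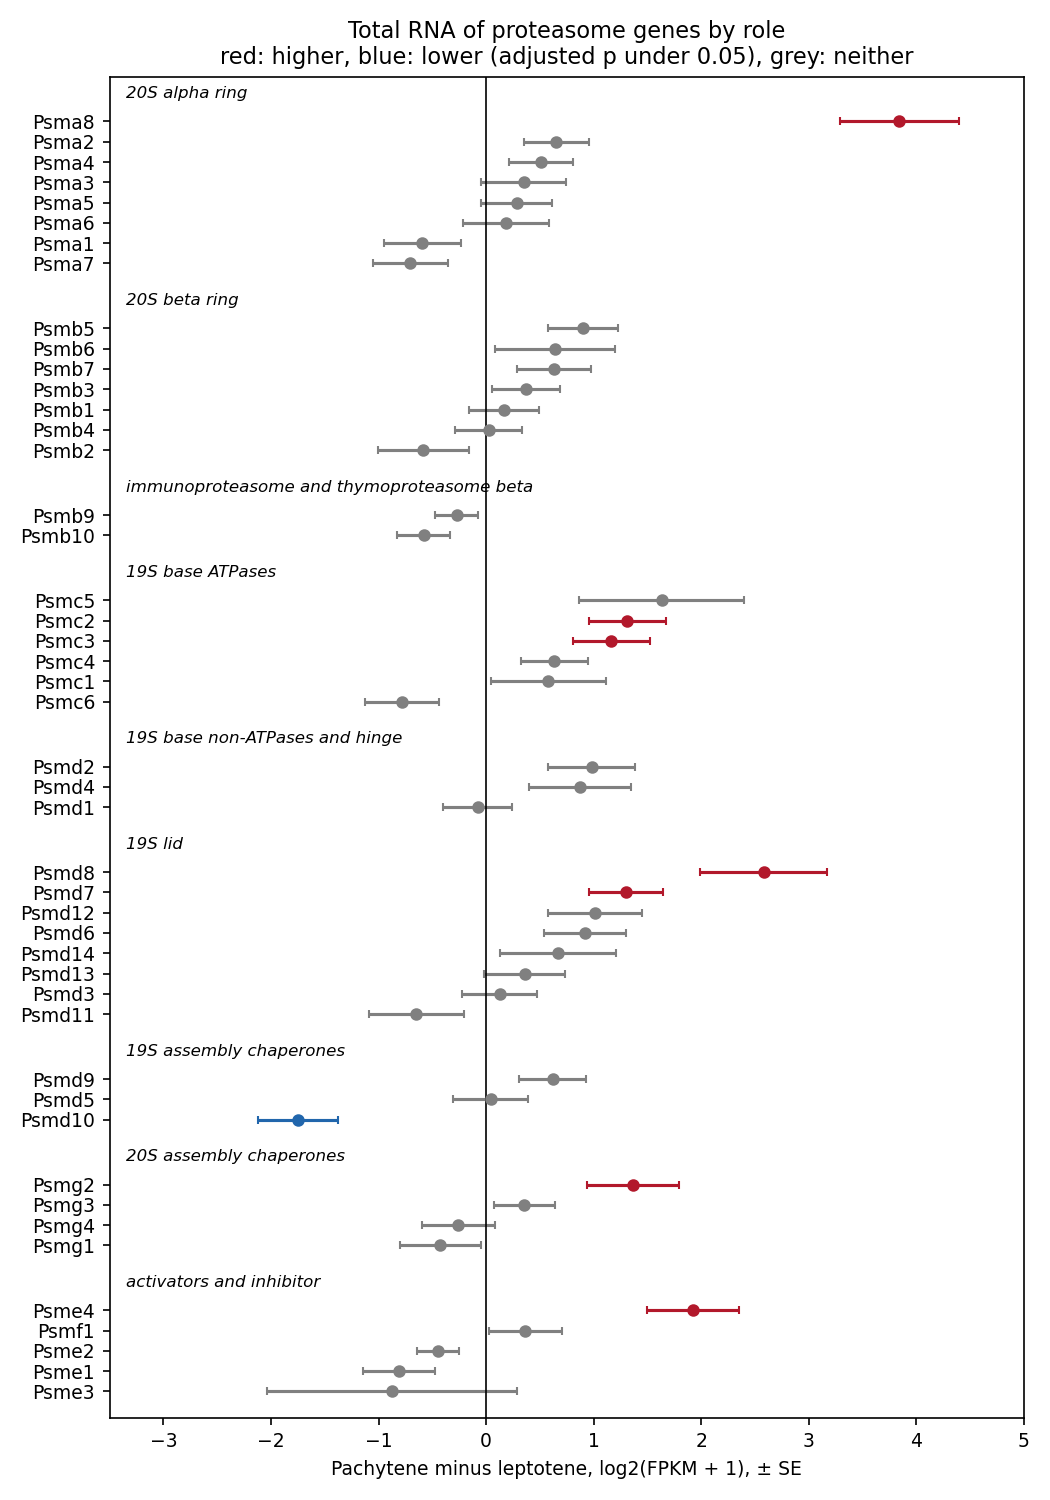
Difference of pachytene from leptotene in total RNA for each of the 46 members tested, in log2(FPKM + 1) with the standard error as bars, grouped by role in the complex. Red points are the members called higher by limma, 7 in number, the blue point is the 1 called lower and grey points are the others and the range runs from Psma8 at 3.84 to Psmd10 at -1.75.

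In the 20S beta ring, which carries the proteolytic sites, none of the 7 constitutive subunits was called in any of the 3 comparisons of total RNA, and their median difference of pachytene from leptotene was 0.37. Of all genes 22.5% rose and 18.0% fell from leptotene to pachytene, and 23.2% rose and 29.9% fell from spermatogonia to pachytene. From spermatogonia to leptotene 0.293% of all genes rose and 9.65% fell. Psmb5, the subunit of the chymotrypsin-like site, was at 36.2, 29.2 and 35.9 FPKM in spermatogonia, 21.7 in preleptotene, 19.4, 44.9, 28.7 and 21.4 in leptotene and 46.9, 63.3, 42.4 and 49.1 in pachytene. Psmb5 was high in pachytene and in leptotene library 2, but its difference from leptotene, 0.90 ± 0.33, missed the threshold (adjusted p = 0.0543, limma). Psmb1, a non-catalytic beta subunit, was at 32.7, 46.7 and 40.7 FPKM in spermatogonia, 30.4, 25.6, 42.2 and 32.8 in leptotene and 36.7, 41.2, 36.8 and 37.6 in pachytene, with overlapping groups. In nascent RNA Psmb1 fell from spermatogonia, at 7.70, 8.89 and 15.8 FPKM, to pachytene, at 4.35, 3.04, 2.77 and 4.94 (by 1.41 on the log2 scale, SE 0.45, adjusted p = 0.0265, limma), a call that was lost with the animal as a block.

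Immunoproteasome subunits were low, and lower in pachytene than in spermatogonia. Psmb10, the interferon-induced form of the trypsin-like site, was at 2.005, 2.59 and 1.52 FPKM in total RNA of spermatogonia, 0.987 in preleptotene, 1.28, 0.373, 1.17 and 1.0015 in leptotene and 0.171, 0.592, 0.239 and 0.322 in pachytene. Psmb9, that of the caspase-like site, was at 1.046, 1.08 and 0.427 FPKM in spermatogonia, 0.305, 0, 0.303 and 0.200 in leptotene, and listed at 0 in pachytene other than 0.0173 in library 3. Spermatogonia lay above pachytene without overlap for both genes, and both fell from spermatogonia to pachytene, Psmb10 by 1.12 (SE 0.27, adjusted p = 0.0077) and Psmb9 by 0.77 (SE 0.22, adjusted p = 0.0161, limma). Psmb9 reached 1 FPKM only in spermatogonia libraries 1 and 2, so it was tested only through the group where it was high. Its call is therefore no separate support for a fall, and without either library it was not tested. With the animal as a block neither gene was called. Psmb8, the interferon-induced counterpart of Psmb5, was at 0.259, 0.941 and 0.583 FPKM in spermatogonia and 0.0679 in leptotene library 1. It was listed at 0 in preleptotene, in the other leptotene libraries and in every pachytene library. The thymus subunit Psmb11 stayed at 0.175 FPKM or less in all 12 libraries.

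Set against their constitutive counterparts, Psmb10 made up 38.9 to 65.1% of Psmb10 and Psmb7 together in spermatogonia and 5.03 to 23.3% in pachytene. Psmb7, the constitutive subunit of that site, was itself at 1.38, 1.39 and 2.40 FPKM in spermatogonia and 3.22, 1.95, 2.68 and 3.45 in pachytene. Psmb9 made up 8.69 to 13.6% of Psmb9 and Psmb6 in spermatogonia, and Psmb8 0.709 to 3.12% of Psmb8 and Psmb5. Psmb6 was at 10.98, 9.01 and 2.71 FPKM in spermatogonia and 8.07, 22.7, 7.03 and 11.5 in pachytene, with overlap. The blood and macrophage marker sum of 8 genes was 36.0 to 39.3 FPKM in spermatogonia, 4.92 to 10.4 in leptotene and 2.55 to 4.05 in pachytene. Leptotene library 2 had the highest leptotene sum, 10.4 FPKM, but H2-Ab1 alone made up 9.60 FPKM of it. That sum therefore says little about the other blood and macrophage markers there. Psmb10 and Psmb9 were the lowest of that stage in the same library. Leydig markers summed to 171 to 417 FPKM in spermatogonia and 4.47 to 7.76 in pachytene, and peritubular and vascular markers to 174 to 392 and 0.527 to 1.16. The part of any of these cells in the immunoproteasome values was not tested.

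Among the 19S ATPases, the ring that unfolds substrates, 2 of 6 rose from leptotene to pachytene, where 22.5% of all genes rose, and the median difference of the 6 was 0.90. Psmc3 was at 11.7, 13.5 and 14.5 FPKM in spermatogonia, 10.05 in preleptotene, 16.7, 41.9, 19.7 and 14.7 in leptotene and 54.5, 35.6, 50.6 and 43.7 in pachytene. Psmc2 was at 4.79, 3.79 and 4.78 FPKM in spermatogonia, 3.99 in preleptotene, 3.48, 14.6, 4.43 and 3.24 in leptotene and 13.6, 11.5, 14.8 and 13.7 in pachytene. Pachytene libraries lay above all others but leptotene library 2, which lay among them, for both genes. The rise from leptotene was 1.31 ± 0.36 for Psmc2 (adjusted p = 0.0194) and 1.16 ± 0.36 for Psmc3 (adjusted p = 0.0304, limma), and from spermatogonia 1.38 ± 0.39 (adjusted p = 0.0166) and 1.69 ± 0.39 (adjusted p = 0.00665, limma). With the animal as a block these calls were lost, with adjusted p of 0.171 for Psmc2 and 0.376 for Psmc3 against leptotene (limma). Psmc3 overlaps an exon of Slc39a13 on the other strand, and whether the counting used strand is not given in the sources used here.

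The other abundant ATPases varied within stages. Psmc1 was at 17.3, 19.5 and 21.9 FPKM in spermatogonia, 7.78, 22.4, 21.7 and 5.62 in leptotene and 20.8, 27.6, 7.64 and 24.6 in pachytene. Psmc5 was at 5.97, 4.94 and 20.2 FPKM in spermatogonia, 13.9, 3.39, 20.2 and 2.13 in leptotene and 25.04, 29.03, 23.2 and 20.5 in pachytene. All pachytene libraries were above the others for Psmc5, but the difference from leptotene, 1.63 ± 0.77, was not called (adjusted p = 0.117, limma). None of the 3 non-ATPase subunits of the base was called, where 22.5% of all genes rose and 18.0% fell from leptotene to pachytene in total RNA. Psmd2, a large scaffold subunit that binds ubiquitin receptors, was at 35.4, 24.7 and 24.8 FPKM in spermatogonia, 35.6, 60.2, 19.1 and 27.4 in leptotene and 65.0, 64.6, 56.1 and 49.1 in pachytene. Psmd1, the other large scaffold, was at 5.02 to 7.01 FPKM in spermatogonia, 6.94 to 10.9 in leptotene and 7.34 to 8.32 in pachytene.

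In the 19S lid, which removes ubiquitin chains, 2 of 8 subunits rose from leptotene to pachytene, a share near the 22.5% of all genes that rose. Of the 8 differences 7 were above 0, and the median was 0.79. Psmd8 (chr7:29174188-29180701, minus strand), a lid subunit that completes the assembled lid, was at 3.65, 6.77 and 12.3 FPKM in spermatogonia, 7.45 in preleptotene, 3.20, 36.0, 2.07 and 6.93 in leptotene and 41.7, 34.6, 44.4 and 36.9 in pachytene. Psmd7, the partner of the deubiquitinase Psmd14, was at 13.8, 14.6 and 9.11 FPKM in spermatogonia, 5.85 in preleptotene, 5.73, 17.4, 7.35 and 6.43 in leptotene and 21.5, 22.4, 20.2 and 19.2 in pachytene. The pachytene libraries lay above all others for Psmd7, and for Psmd8 above all but leptotene library 2, which fell among them. Psmd8 rose by 2.58 ± 0.59 from leptotene (adjusted p = 0.00979) and 2.17 ± 0.65 from spermatogonia (adjusted p = 0.0208, limma). Psmd7 rose by 1.30 ± 0.34 from leptotene (adjusted p = 0.0168, limma; 0.187 with the animal as a block).

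Nascent RNA of the same lid genes differed less. Psmd8 was at 5.07, 5.15 and 7.73 FPKM in spermatogonia, 5.41, 6.29, 6.22 and 4.98 in leptotene and 7.60, 7.44, 5.08 and 14.0 in pachytene, and its difference of pachytene from leptotene, 0.44 ± 0.40, was not called. Psmd7 was at 12.1, 11.7 and 12.3 FPKM in spermatogonia, 5.73, 8.47, 6.45 and 7.75 in leptotene and 12.04, 13.6, 6.01 and 18.6 in pachytene. For both genes the groups overlapped. Psmd11, another lid subunit, was at 9.33, 10.03 and 17.4 FPKM in nascent RNA of spermatogonia and 3.12, 4.65, 0.798 and 5.51 in pachytene. It fell by 1.79 on the log2 scale (SE 0.63, adjusted p = 0.0381, limma), a call that was lost with the animal as a block.

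The 19S assembly chaperones, which hold ATPases during assembly of the base, contained the only member that fell from leptotene. Psmd10 (chrX:140948429-140956728, minus strand), also known as gankyrin, was at 3.20, 3.51 and 4.62 FPKM in spermatogonia, 3.81 in preleptotene, 3.07, 0.381, 4.25 and 3.18 in leptotene and 0, 0, 0.429 and 0.0719 in pachytene. In nascent RNA it was at 1.88, 2.04 and 3.22 FPKM in spermatogonia, 3.13 in preleptotene, 1.97, 0.904, 3.30 and 1.66 in leptotene and listed at 0 in all 4 pachytene libraries. Spermatogonia and 3 leptotene libraries were alike, and leptotene library 2 lay between them and pachytene in nascent RNA and within the pachytene range in total RNA. From leptotene to pachytene Psmd10 fell by 1.75 (SE 0.37, adjusted p = 0.00738) in total and 1.59 (SE 0.37, adjusted p = 0.00816, limma) in nascent RNA, and from spermatogonia by 2.15 (SE 0.41, adjusted p = 0.00269) and 1.82 (SE 0.40, adjusted p = 0.00397, limma). It is the only member on the X chromosome, which is known to be silenced in pachytene spermatocytes. The part of that silencing in these values was not tested.

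Psmd5, another 19S chaperone, was at 4.53, 5.05 and 7.97 FPKM in total RNA of spermatogonia, 4.66, 2.19, 1.61 and 1.64 in leptotene and 1.93, 2.48, 1.99 and 2.32 in pachytene. It fell from spermatogonia to pachytene by 1.18 (SE 0.38, adjusted p = 0.0287, limma) in total RNA and 1.55 (SE 0.56, adjusted p = 0.0423, limma) in nascent RNA, and the former call was lost with the animal as a block. The third chaperone, Psmd9, was at 1.21, 1.19 and 2.05 FPKM in spermatogonia, 1.65, 3.94, 1.65 and 1.59 in leptotene and 3.95, 2.30, 3.84 and 4.08 in pachytene, where it was higher in every library than in spermatogonia but not called.

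Of the 4 chaperones of 20S assembly, Psmg2 rose. It was at 5.99, 5.89 and 3.54 FPKM in spermatogonia, 5.29 in preleptotene, 6.24, 8.79, 2.66 and 5.54 in leptotene and 10.8, 17.0, 12.6 and 17.0 in pachytene, without overlap between pachytene and any other stage. The rise was 1.36 ± 0.43 from leptotene (adjusted p = 0.0323) and 1.43 ± 0.47 from spermatogonia (adjusted p = 0.0295, limma). Psmg1, with which Psmg2 forms the dimer that gathers alpha subunits, was at 7.45, 6.80 and 10.9 FPKM in spermatogonia, 5.16, 10.3, 6.70 and 9.15 in leptotene and 10.4, 3.40, 5.81 and 4.04 in pachytene, with overlap. In nascent RNA Psmg1 fell from spermatogonia, at 3.02, 1.68 and 5.66 FPKM, to pachytene, at 1.77, 0.391, 0 and 1.41 (by 1.42 on the log2 scale, SE 0.51, adjusted p = 0.0418, limma), and this call was lost with the animal as a block.

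Among the activators Psme4, which encodes PA200, the cap of the spermatoproteasome, rose in total RNA. It was at 5.94, 5.06 and 9.29 FPKM in spermatogonia, 7.10 in preleptotene, 6.91, 37.7, 7.16 and 7.58 in leptotene and 42.7, 30.5, 44.6 and 41.9 in pachytene. The 3 other leptotene libraries lay within the spermatogonial range, and leptotene library 2 within the pachytene range. Psme4 (chr11:30771726-30880361, plus strand) rose by 1.92 ± 0.43 from leptotene (adjusted p = 0.00863) and 2.31 ± 0.47 from spermatogonia (adjusted p = 0.00355, limma). In nascent RNA it was at 3.72, 4.08 and 5.17 FPKM in spermatogonia, 5.54, 5.19, 5.27 and 5.53 in leptotene and 8.12, 7.06, 5.05 and 12.7 in pachytene, a difference from leptotene of 0.47 ± 0.38 that was not called.

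Psme3, which encodes the nuclear activator PA28 gamma, scattered widely within stages in total RNA. It was at 30.4, 0.843 and 14.1 FPKM in spermatogonia, 21.3 in preleptotene, 3.68, 0.664, 1.14 and 39.7 in leptotene and 0.843, 19.6, 0.679 and 1.12 in pachytene. Libraries of the same stage differed as widely as the stages did, and no comparison was called. In nascent RNA the same gene was even within stages, at 26.3, 26.4 and 41.5 FPKM in spermatogonia, 30.3, 18.6, 32.1 and 27.2 in leptotene and 11.4, 13.8, 13.2 and 21.6 in pachytene. Of Psme4 and Psme3 together, Psme4 was 11.1 to 13.4% in nascent RNA of spermatogonia and 27.7 to 41.5% in pachytene.

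The interferon-induced activator subunits of PA28 were also lower in pachytene than in spermatogonia. Psme1 was at 1.67, 3.52 and 0.630 FPKM in total RNA of spermatogonia, 1.57, 1.10, 0.671 and 0.978 in leptotene and 0.0573, 0, 0.441 and 0.0636 in pachytene. Psme2 was at 1.15, 1.16 and 0.634 FPKM in spermatogonia, 0.891, 0.120, 0.485 and 0.480 in leptotene and 0, 0.126, 0.170 and 0.0322 in pachytene. Spermatogonia lay above pachytene for both, and Psme1 fell by 1.08 (SE 0.37, adjusted p = 0.0342) and Psme2 by 0.80 (SE 0.21, adjusted p = 0.0126, limma), calls that were lost with the animal as a block. Psme2 reached 1 FPKM only in spermatogonia libraries 1 and 2, so it was tested only through the group where it was high. Its call is therefore no separate support for a fall, and without either library it was not tested. In nascent RNA Psme1 was at 1.38, 1.91 and 1.56 FPKM in spermatogonia, 0.345, 0, 0.570 and 0.553 in leptotene and listed at 0 in pachytene, and it fell to leptotene by 0.88 (SE 0.24, adjusted p = 0.0366) and to pachytene by 1.38 (SE 0.26, adjusted p = 0.00174, limma). Nascent Psme1 reached 1 FPKM only in spermatogonia, so its nascent tests also came only through the group where it was high. Psme1 overlaps an exon of Emc9 on the other strand.

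**Figure D4:**
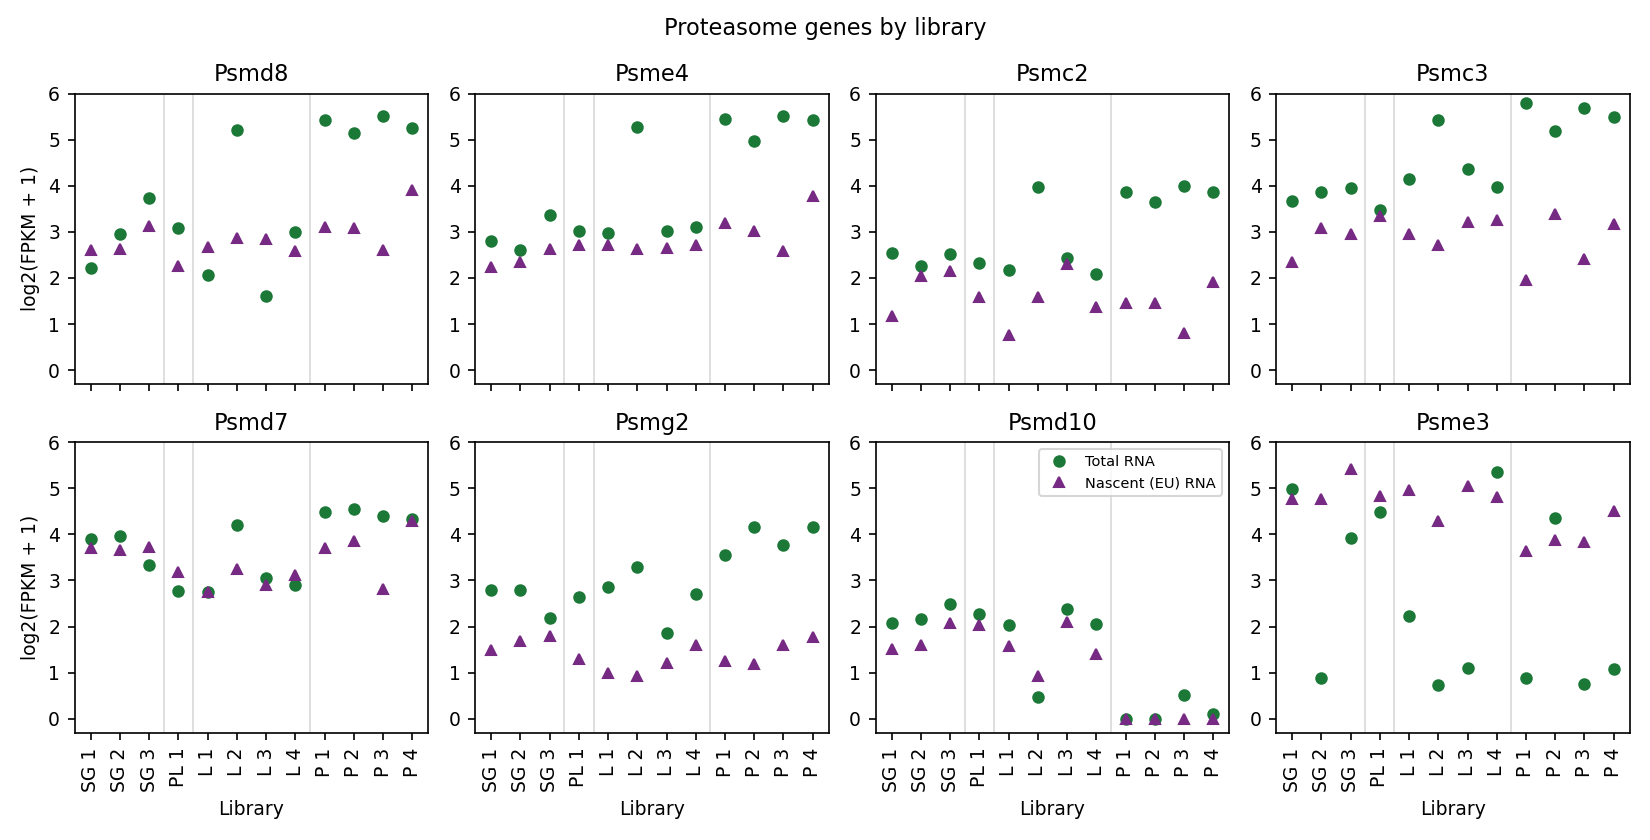
Level of 8 members in every library, as log2(FPKM + 1) on the vertical axis, for total and nascent RNA of spermatogonia (SG), preleptotene (PL), leptotene (L) and pachytene (P). Psmd8, Psme4, Psmc2, Psmc3, Psmd7 and Psmg2 are higher in total RNA of pachytene than of most leptotene libraries, Psmd10 is lower in both assays, and Psme3 scatters from 0.664 to 39.7 FPKM within leptotene total RNA.

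Of 42 members tested in nascent RNA, Psma8 alone rose from leptotene to pachytene and Psmd10 alone fell, where 16.2% of all 15994 genes rose and 16.2% fell. The median member difference was -0.35, against -0.26 over all genes. From spermatogonia to pachytene Psma8 rose and 7 members fell (16.0% and 28.7% of all genes), with a member median of -0.67 against -0.40. The 7 were Psma7, Psmb1, Psmd5, Psmd10, Psmd11, Psme1 and Psmg1. Psme1 reached 1 FPKM in nascent RNA only in spermatogonia, so it was tested only through the group where it was high. From spermatogonia to leptotene only Psme1 fell and none rose (10.2% and 0.863% of all genes), and with the animal as a block 3 members fell between these stages, Psme1, Psma7 and Psmb3 (14.8% of all genes). Without nascent leptotene library 1 the calls of Psma8 (adjusted p = 0.0814) and Psmd10 (0.0559, limma) against leptotene were lost, and Psmd10 was not called with spike-in scaling or in the 5S-corrected table. Against spermatogonia, Psma8, Psma7, Psmd10 and Psme1 were called whichever library was left out. Each of the calls of Psmb1, Psmd5, Psmd11 and Psmg1 was lost without spermatogonia library 3 (adjusted p = 0.193 to 0.33, limma) or leptotene library 1, and some also without spermatogonia library 1 or pachytene library 2 or 3. The fall of Psme1 to leptotene was not called without any 1 of spermatogonia libraries 2 and 3, leptotene library 1 and pachytene libraries 1 and 2 (adjusted p = 0.0514 to 0.0719, limma). On the spike-in scale limma called no gene in nascent RNA, and 1749 genes were under an unadjusted p of 0.05 between spermatogonia and pachytene.

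The 5S-corrected table changes the scale of nascent RNA. It holds 9 of the 12 nascent libraries, without leptotene libraries 2 and 3 and pachytene library 3, and on it the median of all genes was -1.08 for leptotene minus spermatogonia, 0.88 for pachytene minus leptotene and -0.14 for pachytene minus spermatogonia. On that scale 14 members fell to leptotene (27.2% of all genes) and 12 rose from leptotene to pachytene (31.1%), and the member medians were -1.66 and 1.18. Psma8 rose by 5.74 ± 0.85 from leptotene (adjusted p = 1.52e-06, limma), and Psma7 went from below 0 to 0.15 in that comparison.

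Total and nascent RNA were compared in a model over both assays, as the interaction of assay with stage. No member was called by limma in pachytene minus leptotene, where 0.0606% of all 19792 genes were higher and 0.0152% lower, and 8 members, all with positive differences, were under an unadjusted p of 0.05, as were 1663 genes. They were Psmd8, Psmd12, Psmd6, Psmc3, Psmc2, Psme4, Psmg2 and Psma2. The largest was Psmd8, for which the gain of total over nascent RNA was 2.14 ± 0.74 (adjusted p = 0.409, limma). The median over the 46 members was 0.66, against 0.17 over all genes, and 37 were above 0. For Psma8 the difference between the assays was 0.74 ± 0.82 (adjusted p = 0.89, limma). Without leptotene library 2 of both assays, Psmd12, Psmd8 and Psme4 were called higher, with 2.99% of all genes. From spermatogonia to leptotene no member was called or under an unadjusted p of 0.05 in this model (limma), where 0.0101% of all genes were higher and 0.0657% lower, and 886 genes had such a p.

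**Figure D5:**
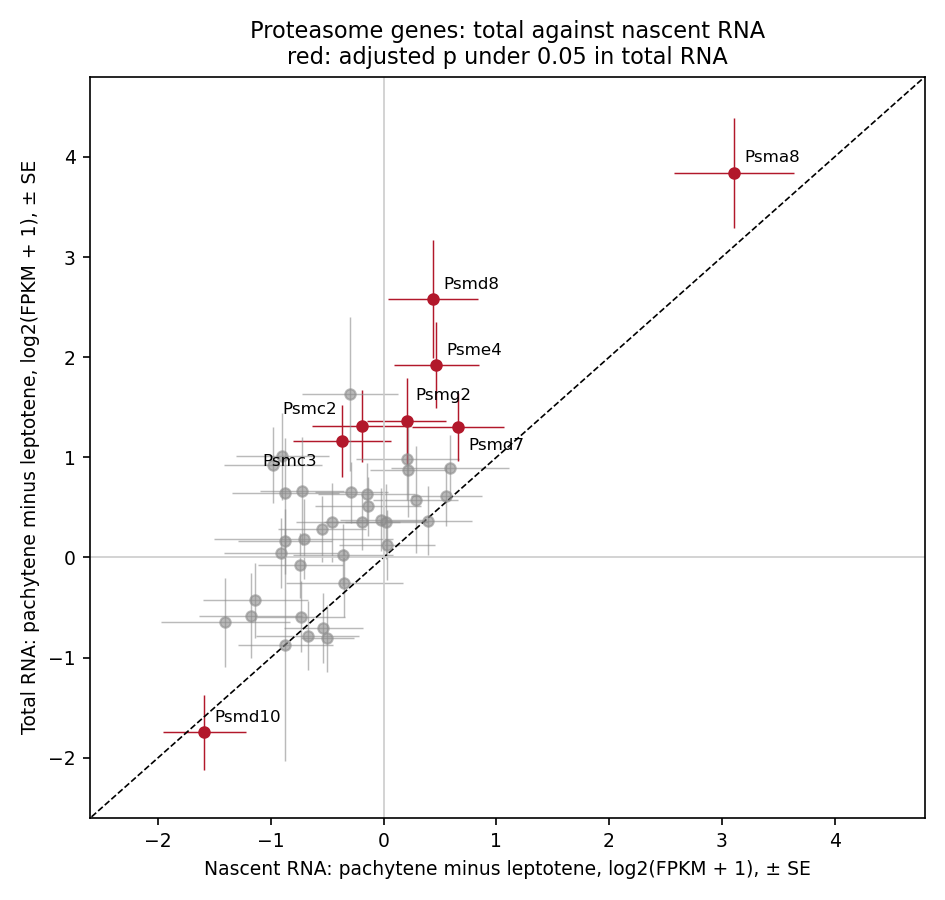
Difference of pachytene from leptotene in log2(FPKM + 1), nascent RNA on the horizontal axis and total RNA on the vertical axis, 1 point per member tested in both assays, with standard errors as bars and a dashed line of equal difference; red points were called in total RNA. Psma8 lies far from the others at 3.11 and 3.84, Psmd10 at -1.59 and -1.75, and Psmd8 and Psme4 lie above the line at 0.44 and 2.58 and at 0.47 and 1.92.

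Genes that serve the proteasome without being subunits by name were taken from a list of 31 ubiquitin receptors, shuttling factors, deubiquitinases, chaperones and regulators, of which 27 were in the table and 26 were tested. In total RNA 3 of them fell from leptotene to pachytene, where 18.0% of all 19097 genes fell, and the median difference over the 26 was 0.14. Nfe2l2, a transcription factor of the oxidative stress response, was at 14.9, 16.3 and 12.2 FPKM in spermatogonia, 4.76, 1.31, 9.28 and 5.31 in leptotene and 0.0221, 0.136, 0.514 and 0.110 in pachytene, and fell by 2.39 (adjusted p = 0.00426, limma). Ubqln2, a shuttle encoded on the X chromosome, was at 14.9, 18.1 and 13.2 FPKM in spermatogonia, 12.7, 2.07, 9.34 and 13.1 in leptotene and 0.126, 0.196, 1.49 and 0.127 in pachytene, and fell by 2.82 (adjusted p = 0.00313, limma). The third that fell was Txnl1, a thioredoxin that binds the 19S particle (by 1.52, adjusted p = 0.0122, limma). The calls of these 3 genes were lost without leptotene library 1 (adjusted p = 0.173 to 0.211), and that of Txnl1 with the animal as a block (adjusted p = 0.19, limma).

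From spermatogonia to pachytene Pithd1 and Akirin2 rose in total RNA, and 4 of the 26 fell, Nfe2l2, Ubqln2, Txnl1 and Zfand5 (23.2% and 29.9% of all genes rose and fell). With the animal as a block the calls of Akirin2 (adjusted p = 0.275), Pithd1 (0.294), Txnl1 (0.388) and Zfand5 (0.282, limma) were lost. Akirin2, which carries proteasomes into the nucleus, was at 17.0, 16.4 and 18.8 FPKM in spermatogonia, 17.3, 42.5, 20.8 and 21.5 in leptotene and 46.6, 35.7, 47.5 and 44.3 in pachytene, so that pachytene and leptotene library 2 lay above all other libraries. None of the 26 was called between spermatogonia and leptotene in either assay. Of all genes 0.293% rose and 9.65% fell there in total RNA, and 0.863% rose and 10.2% fell in nascent RNA. In nascent RNA none rose and 5 fell from leptotene to pachytene, Ubb, Ubqln2, Txnl1, Nfe2l1 and Nfe2l2, where 16.2% of all genes rose and 16.2% fell. With the animal as a block Ubb (adjusted p = 0.387), Txnl1 (0.326) and Nfe2l1 (0.406, limma) were not called. Ubb, a polyubiquitin gene, was at 53.7, 140.1, 55.4 and 53.8 FPKM in nascent RNA of leptotene and 1.64, 0.841, 1.38 and 223 in pachytene, so that its groups overlapped through pachytene library 4, and its call was lost with libraries as units (adjusted p = 0.0773) and without pachytene library 2 (adjusted p = 0.44, limma).

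The profile of Psma8 over the 12 total RNA libraries was compared with 12194 other genes by Pearson correlation of log2(FPKM + 1), as a description. The most similar were Sephs2 (r = 0.999), Cand1, Jcad, Psip1 and Tcea2 (r = 0.996 to 0.997). Sephs2 makes the selenium donor for selenoproteins and was at 19.3 to 31.8 FPKM in spermatogonia, 304.5 in leptotene library 2 and 317 to 411 in pachytene. Among members the highest correlations were those of Psmc2 (r = 0.981), Psme4 (0.977), Psmc3 (0.943), Psmg3 (0.926) and Psmd8 (0.924), and the lowest that of Psmd10 (-0.961). All of these rest on the contrast between the 4 pachytene libraries with leptotene library 2 and the rest.

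Promoter sequence was taken from RefSeq (GRCm38.p6) for the 41 members that it held, as the 250 bases before the start. The windows of Psmd8 and Psmd10 are printed with 222 and 233 bases, since bases inside the GENCODE gene model were left out at their ends. Sequences are shown for members that moved in opposite directions, Psmd8 and Psmc2 that rose and Psma7 and Psmd10 that fell, each on the strand of its gene, with capitals marking matches on either strand to AACTG (the core bound by MYB proteins), CCAAT (the CCAAT box) or CCGGAAG (the ETS core). They cover chr7:29180702-29180923, chr5:21785025-21785274, chr2:180042465-180042714 and chrX:140956729-140956961, on the minus, plus, minus and minus strand.
Psmd8: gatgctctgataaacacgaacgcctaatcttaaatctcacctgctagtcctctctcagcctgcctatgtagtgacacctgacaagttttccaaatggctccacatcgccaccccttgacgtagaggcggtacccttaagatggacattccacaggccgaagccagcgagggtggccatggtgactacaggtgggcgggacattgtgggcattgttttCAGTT
Psmc2: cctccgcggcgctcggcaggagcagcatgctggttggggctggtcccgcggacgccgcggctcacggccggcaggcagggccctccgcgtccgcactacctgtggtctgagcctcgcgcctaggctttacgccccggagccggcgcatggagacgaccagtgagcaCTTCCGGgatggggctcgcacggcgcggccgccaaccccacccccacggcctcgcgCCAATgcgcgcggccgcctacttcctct
Psma7: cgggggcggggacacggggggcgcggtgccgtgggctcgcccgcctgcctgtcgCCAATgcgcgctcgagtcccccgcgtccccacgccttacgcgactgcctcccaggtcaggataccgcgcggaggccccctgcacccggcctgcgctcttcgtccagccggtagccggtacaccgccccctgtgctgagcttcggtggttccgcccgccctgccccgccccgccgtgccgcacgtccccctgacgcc
Psmd10: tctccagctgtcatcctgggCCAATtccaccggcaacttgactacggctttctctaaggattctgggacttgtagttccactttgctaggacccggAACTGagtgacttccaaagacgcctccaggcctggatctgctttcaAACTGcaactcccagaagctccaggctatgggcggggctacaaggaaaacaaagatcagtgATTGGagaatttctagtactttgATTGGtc

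The window of Psmd8 held a MYB core read on the other strand, the printed window of Psmc2 an ETS core and a CCAAT box, and that of Psma7 a CCAAT box only. RefSeq gives Psmc2 a second start, whose window is not printed and held a MYB core and an ETS core. The window of Psmd10 held 2 MYB cores and 3 CCAAT boxes. MYB cores and CCAAT boxes thus stood in printed windows of both directions. Over the 41 members the ETS core was in 12 windows (29.3%), against 15.2% of 10849 genes tested in total RNA and 7.83% of all 27025 genes with a window. The MYB core was in 17 (41.5%, against 37.3% and 42.6%), the CCAAT box in 14 (34.1%, against 40.3% and 37.5%) and TGACNNNGC, the antioxidant response element that Nfe2l1 and Nfe2l2 bind, in 5 (12.2%, against 13.9% and 11.5%). Motifs were sought on both strands, none of them contains another, and the shares are descriptions.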

How the data were processed

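Gene-level FPKM were deposited for both assays. Per the submitters' processing notes the authors used STAR 2.5.2a, StringTie and the mm10 build; the annotation, the use of strand and the treatment of reads with several matches are not given in the sources used here. The deposited 5S-corrected table holds a signal equal to the nascent FPKM times 1 factor per library, 0.441 to 5.08. Columns were mapped to 24 libraries by title, with 0 left unmapped. Depth per gene is unknown: 31.5 to 35.3% of low values in total and 35.2 to 43.3% in nascent libraries lay within 0.05 of whole reads, so no count test was run and the precision rests on the 2 or 3 animals per stage.

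Spike-ins were set aside, 1 was added before log2, and a gene was tested where 2 or more libraries of spermatogonia, leptotene and pachytene reached 1 FPKM. Where an animal gave several libraries of a stage, their mean was used. Two-sided tests came from limma (version 3.58.1; eBayes with trend; R 4.3.3) and Benjamini-Hochberg adjustment over all genes tested, or from an exact permutation test over animals. The single preleptotene library entered no test. The animals are named in the labels. In each assay 2 of them gave both spermatogonia and leptotene and 1 both leptotene and pachytene, so the animal was also fitted as a block. The block difference of pachytene from leptotene rests on that 1 animal. Deviations from the stage means of such same-animal pairs correlated at 0.0165 to 0.0837 across genes in total and -0.162 to 0.0495 in nascent RNA. Alternatives were a pseudocount of 0.1, no filter, quantile normalisation, spike-in scaling, libraries as units, the 9 libraries of the 5S-corrected table, that table itself and leaving out each library, and FPKM per non-spike total and the omission of leptotene library 2 from both assays, which were chosen after seeing the data. Scripts were tested on simulated data.

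Members and lists were chosen with earlier results of these data known. In each role up to 4 called members per comparison, or the 2 with the highest mean, are named, with the pairs of alternative subunits, and the 5 genes most like Psma8 leave out predicted genes and pseudogenes. One gene of the list of other proteasome factors is not reported here. The members named for an unadjusted p under 0.05 in total over nascent RNA, and the 4 promoters shown, were chosen after their values were seen. Python 3.11.15 was used with scipy 1.17.1, pandas 2.3.3, numpy 2.4.6 and, for figures, matplotlib 3.10.9.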

Additional observations from a re-analysis of the deposited data

Results flagged for a closer look

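A gap rule for single libraries was applied to 68 groups of 4 libraries on the log2(FPKM + 1) scale, where a library stands apart if its gap to the nearest other, as a part of the range, exceeds Dixon's 95% critical value. It picked out 9 groups. The rule's rate of about 1 in 20 does not hold where all other libraries are listed at 0, since the gap is then fixed at 1. Groups of that kind are among the 9, so the count is not compared with that rate. In total RNA of leptotene, library 2 was the highest for Psme4, at 5.27 against 2.98 to 3.10, and for Psma8 over Psma7, at 6.60 against 1.03 to 1.58. In nascent RNA of leptotene the same library was the highest for Psma8 over Psma7, at 4.37 against 0.42 to 0.61. In total RNA of pachytene, library 2 was the lowest for Psme4, at 4.98 against 5.42 to 5.51, and library 3 was the highest for Psme1, at 0.53 against 0 to 0.09, and for Psmb9, at 0.025 against 0. In nascent RNA Psmb10 stood out at 0.60 in leptotene library 1 and at 0.17 in pachytene library 4, and Psme2 at 0.17 in pachytene library 2, with the others listed at 0.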

How the results depend on the processing

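In total RNA the calls of Psma8, Psmd8, Psme4 and Psmd10 between leptotene and pachytene held under each alternative run other than the omission of leptotene library 1, and with 2 or 3 animals per stage the spread between animals limits every test. Where values moved, the cause was not tested. For Psma8 minus Psma7 on the log2 scale a pseudocount of 0.1 gave 6.71 in total RNA (pachytene minus spermatogonia) and 5.15 and 7.35 in nascent RNA (pachytene minus leptotene and minus spermatogonia). The animal as a replicate block gave 4.76 in nascent RNA (pachytene minus leptotene). That value is the difference within the 1 animal that gave both stages, with leptotene library 3 as its leptotene side.

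Counts of members called in total RNA were, for leptotene minus spermatogonia lower (0 as reported), 1 without a filter, 3 with libraries as units, 5 in the 9 libraries and 2 per non-spike FPKM. For pachytene minus leptotene higher (7) they were 3 with quantile normalisation, 22 with spike-in scaling, 4 with the replicate block, 11 with libraries as units, 17 in the 9 libraries and 15 per non-spike FPKM, and lower (1) 3 with a pseudocount of 0.1, 3 with libraries as units and 6 in the 9 libraries. For pachytene minus spermatogonia higher (6) they were 12 with spike-in scaling and 11 in the 9 libraries, and lower (7) 4 with quantile normalisation, 4 with spike-in scaling and 2 with the replicate block. All genes that rose from leptotene to pachytene were 39.5% with spike-in scaling, 29.0% per non-spike FPKM and 13.7% with the replicate block.

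In nascent RNA, leptotene minus spermatogonia higher (0) became 1 in the 9 libraries, and lower (1) became 0 with a pseudocount of 0.1, without a filter, with quantile normalisation and with spike-in scaling, 3 with the replicate block, 3 with libraries as units, 9 in the 9 libraries, 14 in the 5S-corrected table and 2 per non-spike FPKM. Pachytene minus leptotene higher (1) became 0 with spike-in scaling, 4 in the 9 libraries, 12 in the 5S-corrected table and 2 per non-spike FPKM, and lower (1) became 3 with a pseudocount of 0.1, 2 with quantile normalisation, 0 with spike-in scaling, 5 in the 9 libraries and 0 in the 5S-corrected table. Pachytene minus spermatogonia higher (1) became 2 with quantile normalisation, 0 with spike-in scaling, 2 in the 9 libraries and 2 per non-spike FPKM, and lower (7) became 4 without a filter, 0 with spike-in scaling, 15 with libraries as units, 15 in the 9 libraries and 3 in the 5S-corrected table. Spike-in scaling of nascent RNA moved the median of all genes to -1.17 (pachytene minus leptotene) and called no gene at all by limma, with 1003 genes at an unadjusted p under 0.05. For total over nascent RNA, 1 member was called lower without a filter (leptotene minus spermatogonia), and 3 higher in the 9 libraries and 3 without leptotene library 2 of both assays (pachytene minus leptotene).

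Leaving out each library in turn, the ratio in total RNA ranged from 0.19 to 2.05 (leptotene minus spermatogonia), 3.62 to 5.47 (pachytene minus leptotene) and 5.47 to 6.09 (pachytene minus spermatogonia), and in nascent RNA from 0.57 to 1.89, 2.98 to 4.30 and 4.70 to 5.05. Counts in the same order were 0 to 2 lower, 0 to 13 higher with 0 to 5 lower, and 1 to 9 higher with 4 to 7 lower in total RNA, and 0 to 4 lower, 0 to 1 higher with 0 to 6 lower, and 1 higher with 3 to 13 lower in nascent RNA. For total over nascent RNA 0 to 3 were higher (pachytene minus leptotene).

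Some directions turned. Psma8 in leptotene minus spermatogonia was -0.74 in the 9 libraries and -0.45 without leptotene library 2 in total RNA, and in nascent RNA -0.064 with a pseudocount of 0.1, -0.024 with spike-in scaling, -0.80 in the 9 libraries, -1.79 in the 5S-corrected table and, leaving out each library in turn, -0.50 (leptotene library 2) to 0.64 (leptotene library 1). In the 5S-corrected table pachytene minus leptotene was 0.15 for Psma7 and 0.079 for Nfe2l1, which was called lower as reported. For total over nascent RNA, Psma8 in leptotene minus spermatogonia was -0.019 with quantile normalisation and -0.52 to 1.11 leaving out each library (total leptotene libraries 2 and 1), and in pachytene minus leptotene -0.14 with quantile normalisation and -0.084 to 1.55 leaving out each library (total leptotene libraries 1 and 2). Psma7 there was 0.28 with a pseudocount of 0.1, 1.18 with spike-in scaling and 0.14 without total leptotene library 3.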
